A study of Homo sapiens with 12 samples.

Results

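The transcriptome of CAMA-1 cells after 5 days with the oestrogen receptor (ER) degrader fulvestrant at 5 nM alone was compared with that of cells given the vehicle DMSO. CAMA-1 is an established human ER-positive breast cancer line, used here in its wild-type form, and all values come from this line. The comparison rests on 6 of the 12 libraries of the series, 3 biological replicates of each treatment, chosen by their treatment label, and on 11803 of the 60656 rows of the count table, those with enough reads to be tested. The other 6 libraries hold the CDK4/6 inhibitor abemaciclib at 100 nM and the combination. They enter the fit behind every change and adjusted p through filter, scaling and shared spread. Their levels are given only where named. Libraries were made with a 3′ mRNA kit, so that reads fall at the 3′ ends of polyadenylated transcripts and a gene's count follows its transcript number, largely whatever the transcript's length. Levels are CPM, counts scaled to a common library size, given in the order of replicates 1, 2 and 3, and changes are log2 values, fulvestrant minus DMSO, ± SE. Total counts were between 3299119 and 5164667 in DMSO and between 3740598 and 4394518 under fulvestrant.

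The ER is a nuclear receptor that, bound by oestradiol, recruits coactivators to enhancers and drives genes such as PGR and GREB1. Fulvestrant binds the receptor, blocks its activation and sends the protein to degradation, so its first reach is the ER protein and the genes the receptor drives. Among those are cyclin D1 and MYC. Cyclin D1 with CDK4/6 phosphorylates Rb, which otherwise holds E2F factors in check at the promoters of replication genes, while mitotic genes are mostly held by the DREAM complex at promoter elements called CHR.

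Markers matched the labelled cells. The summed level of 22 luminal epithelial markers was between 7229 and 7653 CPM in DMSO and between 9569 and 10488 CPM under fulvestrant, and PIP was the 1 marker at 0. Of 13 markers of blood, stromal and endothelial cells, 10 had no more than 3 counts in any of the 6 libraries, PTPRC, PECAM1, LUM and DCN among them at 0. The collagen genes COL1A1 and COL3A1 made up most of that list's sum. The 18 basal and mesenchymal markers summed to between 126 and 137 CPM in DMSO and between 192 and 211 CPM under fulvestrant. MYL9, a myosin light chain, made up most of that sum, with 95.3, 109 and 104 CPM in DMSO and 145, 155 and 163 CPM under fulvestrant. In this list 5 markers had no more than 3 counts in any library, KRT5, TP63, ZEB1 and CNN1 among them. ESR1 itself, at chr6:151656691-152129619, was at 99.1, 92.2 and 88.5 CPM in DMSO and 90.4, 88.3 and 107 CPM under fulvestrant. The groups overlapped, and its change of 0.04 ± 0.09 (adjusted p = 0.77) did not pass the test. Fulvestrant acts on the receptor protein, which was not measured here, so the treatment is checked through the receptor's targets.

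Replicate 3 of fulvestrant stood apart from the other two. Across genes its log2 CPM correlated at 0.978 with replicate 1 and at 0.970 with replicate 2, against 0.981 between replicates 1 and 2 and between 0.982 and 0.988 within DMSO. It lay at least 2-fold outside both other replicates in 61 of 8321 genes with a mean of at least 10 CPM, 15 above and 46 below, against 1 such gene in replicate 1 and 12 in replicate 2. The slope of its changes from DMSO on the mean change of the other replicates was 0.847, with 0.966 and 0.975 for replicates 1 and 2. Where a call of a named gene turned on this library, or a count of calls in a list moved by over 1.5 times without it, values with and without it are given.

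Fulvestrant changed 6023 of the 11803 genes tested, or 51.0% at an adjusted p under 0.05 in edgeR's quasi-likelihood test, with Benjamini-Hochberg adjustment over all of them. Of these, 2988 were higher (25.3% of genes tested) and 3035 lower (25.7%). The counts of rises and falls were close, yet the falls were deeper. At least 2-fold rises were seen in 953 genes (8.07%) and falls in 1119 (9.48%), whereas 36 genes rose (0.305%) and 171 fell (1.45%) at least 8-fold. The median change over all genes tested was 0.01. Of the 171 genes that fell at least 8-fold, 47 were among the 94 tested genes of hand-written lists of DNA replication and mitosis. With replicate 3 of fulvestrant left out, 6162 genes were called, 5479 of them shared with the full set and none of the shared genes in the opposite direction. A total of 544 calls were lost. Over all genes, the fulvestrant and DMSO libraries did not overlap in 6457 of the 11803 tested and in 5579 of the 6023 called. Absence of overlap was therefore usual for a called gene. With 3 libraries a group, an exact two-sided permutation test of a single gene cannot go below 0.1, so tests rest on the model fitted across all genes.

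**Figure D1:**
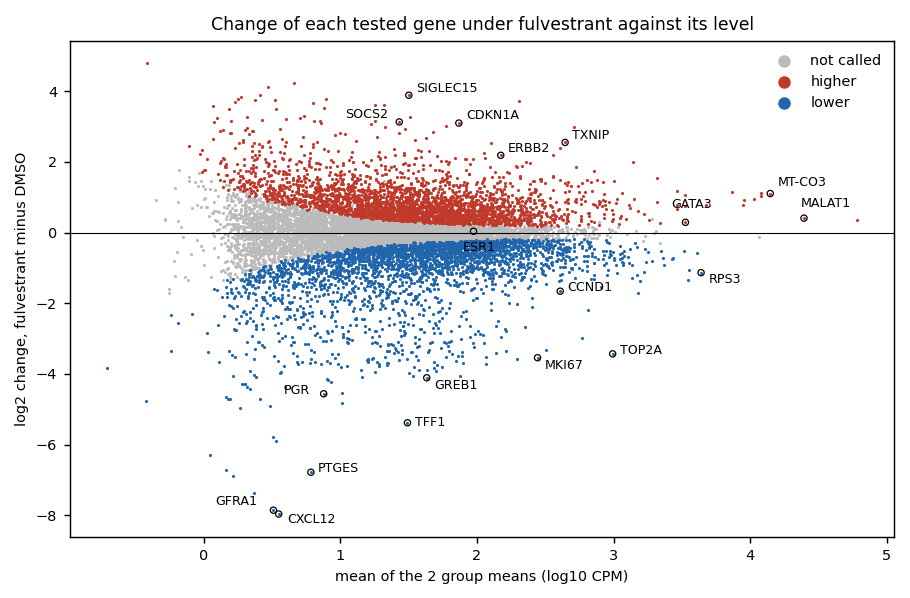
Change of each of the 11803 genes tested (log2, fulvestrant minus DMSO) against the mean of its 2 group means (log10 CPM); red and blue points passed the test as higher or lower, grey points did not, and circles mark named genes. Among the circled genes, the ER targets CXCL12, GFRA1, PTGES and TFF1 lie lowest, MKI67 and TOP2A combine a high level with a fall, and ESR1 lies on the zero line. Other genes without a circle also lie at the bottom, and the depth of the lowest points depends on the fit's prior count.

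The first question was which ER-driven genes were lost. Of 38 tested genes of a list of classical ER targets, 28 fell (25.7% of all genes), 4 rose (25.3%) and 6 did not pass the test, with a median change of -1.27 against 0.01 over all genes, a median that does not depend on the list's genes at 0 reads. PGR (chr11:101029624-101129813), the progesterone receptor and a standard readout of ER activity, was at 15.4, 14.6 and 13.4 CPM in DMSO and at 0.988, 0.564 and 0.228 CPM under fulvestrant, a change of -4.56 ± 0.36 (adjusted p = 3.3e-11). TFF1 (chr21:42362282-42366535), a secreted trefoil peptide, stood at 62.3, 57.2 and 62.0 CPM in DMSO and 1.73, 1.97 and 0.684 CPM under fulvestrant. All 3 fulvestrant libraries were far below the lowest DMSO library in both genes, and TFF1 changed by -5.38 ± 0.19 (adjusted p = 1.4e-18). GREB1 (chr2:11482341-11642788), an ER cofactor that is itself an ER target, went from 86.1, 79.8 and 77.5 CPM to 4.45, 3.95 and 5.47 CPM, again without overlap, a change of -4.11 ± 0.15 (adjusted p = 2.5e-18). CCND1 (chr11:69641156-69654474), which encodes cyclin D1, was at 624, 616 and 613 CPM and then at 195, 186 and 205 CPM, and so kept more of its level than PGR, TFF1 or GREB1, with a change of -1.66 ± 0.07 (adjusted p = 2.0e-16).

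Some targets fell to the detection floor, set at 3 counts per library. CXCL12 (chr10:44370165-44386493), a chemokine that ER induces in breast cancer cells, had 26, 33 and 35 counts in DMSO and 0 in each fulvestrant library, which makes it at least 9.34-fold lower (adjusted p = 4.5e-09). GFRA1, a co-receptor of RET for ligands of the GDNF family, had 20, 34 and 34 counts in DMSO and likewise none under fulvestrant, at least 8.55-fold lower (adjusted p = 9.4e-09). PTGES (chr9:129738331-129753042), which makes prostaglandin E, had 34, 66 and 66 counts in DMSO and a single read in the 3 fulvestrant libraries together. The ratio of its summed counts was 148 with a 95% counting interval (exact binomial) from 26.1 to 5867. Intervals and floors of this kind cover counting error only. In all, 56 genes of the table had a mean of at least 10 counts in DMSO and no more than 3 in any fulvestrant library, 6 of them with no read at all under fulvestrant, and 19 genes showed the reverse. PIM1, a kinase, and ACKR3, the scavenger receptor of CXCL12, were picked from these after their values were seen. PIM1 had 9, 26 and 27 counts in DMSO and 1 in every fulvestrant library, a ratio of summed counts of 18.4 (counting interval 6.01 to 91.6, adjusted p = 1.0e-05). ACKR3 moved the other way, from 0, 3 and 0 counts to 11, 15 and 16, a ratio of 15.7 (counting interval 5.03 to 79.4, adjusted p = 1.8e-05). Its 3 reads in DMSO came from replicate 2 alone. Ligand and scavenger receptor changed in opposite directions. Under abemaciclib, PIM1 had 0 counts in each library as well, whereas CXCL12 had 38, 31 and 24 and PTGES 387, 381 and 298.

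Not every listed target fell. CTSD, the lysosomal protease cathepsin D, was higher under fulvestrant at 297, 321 and 229.7 CPM than in DMSO at 159, 176 and 191 CPM, without overlap (0.69 ± 0.10, adjusted p = 1.4e-06). The other listed targets that rose, picked here after their values were seen, were AREG (0.38), CELSR2 (0.45) and RARA (0.58). AREG (adjusted p = 0.041) did not pass without replicate 3 of fulvestrant (0.27, adjusted p = 0.19) or without replicate 1 or 2 of DMSO, nor with DESeq2, with no filter on low counts, with only the compared libraries or after thinning (adjusted p = 0.055 to 0.19 over these settings). Without replicate 3 of fulvestrant the list had 27 lower and 3 higher. XBP1, a transcription factor of the secretory pathway, was at 767, 804 and 806 CPM in DMSO and 808, 719 and 755 CPM under fulvestrant, and its change of -0.06 ± 0.07 (adjusted p = 0.5) did not pass the test, nor did that of the zinc transporter SLC39A6 (-0.14 ± 0.08). MYC was scattered, at 8.61, 16.7 and 27.5 CPM in DMSO and 10.6, 5.64 and 4.33 CPM under fulvestrant. Its groups overlapped, and its change of -1.40 ± 0.44 (adjusted p = 0.022) was lost without replicate 2 of fulvestrant (-1.30, adjusted p = 0.078) or without replicate 3 (-1.14, adjusted p = 0.091), and with only the compared libraries in the fit (-1.39, adjusted p = 0.053).

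The receptor's partners moved little and mostly upward. Of 20 tested genes for ER, its pioneer factors and coregulators, 11 rose (25.3% of all genes) and 1 fell (25.7%), with a median of 0.26. Without replicate 1 of DMSO or replicate 2 of fulvestrant 2 fell. FOXA1, the pioneer factor that opens chromatin for ER, was at 235, 225 and 219 CPM in DMSO and 316, 361 and 309.7 CPM under fulvestrant (0.54 ± 0.09, adjusted p = 1.8e-05). GATA3, a luminal transcription factor that works with both, went from 3176, 3062 and 2818 CPM to 3482, 3265 and 4317 CPM. Replicate 3 was the highest of the fulvestrant libraries in GATA3, and the change of 0.29 ± 0.09 (adjusted p = 0.0087) did not pass without it (0.16, adjusted p = 0.059). The co-repressor NCOR1 (0.49 ± 0.09), the coactivator NCOA2 (0.65 ± 0.10) and the transcription factor TFAP2A (0.78 ± 0.13) also rose.

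Of the 32 lists, those of the cell cycle had the lowest medians. All 46 tested genes of DNA replication and all 48 tested genes of mitosis fell, against 25.7% of all genes tested, with medians of -2.23 and -3.34. Per fulvestrant library, the median of the replication genes was -2.12, -2.10 and -2.17 and that of the mitotic genes -3.26, -3.24 and -3.21 in the order of replicates, and the libraries lay close together. The mitotic genes took 0.829, 0.771 and 0.760% of all counts in DMSO and 0.0850, 0.0772 and 0.0922% under fulvestrant. In bulk RNA, fewer cycling cells and less of these transcripts per cell cannot be told apart.

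Among replication genes, RRM2, the regulatory subunit of ribonucleotide reductase, was at 222, 209 and 219.5 CPM in DMSO and 17.0, 18.3 and 14.4 CPM under fulvestrant (-3.71 ± 0.11, adjusted p = 9.9e-20). CDT1, which loads the MCM helicase at origins, went from 92.0, 84.4 and 93.4 CPM to 7.41, 5.92 and 5.70 CPM (-3.82 ± 0.15, adjusted p = 1.2e-17), and TYMS, the thymidylate synthase, from 71.8, 79.4 and 92.2 CPM to 6.18, 7.90 and 2.73 CPM (-3.89 ± 0.29, adjusted p = 3.3e-07). No library of one group reached the other in these 3 genes. PCNA, the sliding clamp of the replisome, kept more of its transcript, with 241, 199 and 185 CPM against 40.8, 47.4 and 47.4 CPM and a change of -2.20 ± 0.11 (adjusted p = 2.5e-15). The helicase subunit MCM2 changed by -2.64 ± 0.17 (adjusted p = 1.3e-09) and thymidine kinase TK1 by -3.38 ± 0.16 (adjusted p = 6.7e-16). Of the factors that drive these programmes, E2F1 changed by -2.85 ± 0.13 (adjusted p = 4.5e-16), MYBL2 by -3.40 ± 0.12 (adjusted p = 2.2e-18) and FOXM1 by -2.59 ± 0.18 (adjusted p = 1.2e-12).

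Mitotic genes had the lower median of the 2 lists. MKI67 (chr10:128096659-128126423), which coats mitotic chromosomes and is the usual marker of proliferation, was at 569, 498 and 466 CPM in DMSO and 44.5, 41.2 and 45.6 CPM under fulvestrant (-3.54 ± 0.10, adjusted p = 1.6e-20). NCAPG and NCAPH, subunits of condensin, went from 149.6, 141 and 137 CPM to 6.18, 10.7 and 8.89 CPM (-4.06 ± 0.15, adjusted p = 5.4e-18) and from 35.9, 35.7 and 29.97 CPM to 1.73, 1.69 and 2.96 CPM (-3.95 ± 0.26, adjusted p = 5.8e-13). The kinetochore genes NDC80 and NUF2, partners in 1 complex, changed by -4.06 ± 0.21 (adjusted p = 5.8e-15) and -3.91 ± 0.17 (adjusted p = 1.8e-16). CCNA2, CCNB1 and CDK1, the cyclins and kinase of S phase and mitotic entry, fell by 3.74, 3.11 and 3.28 on the log2 scale. TOP2A, the topoisomerase of mitotic chromosomes, was among the 8 largest losses in CPM of any gene, from 1884, 1750.5 and 1767 CPM to 167, 145 and 187 CPM. BRCA2 and BLM, which act in recombination repair and lie outside these lists, were among the 15 largest falls, with 66.8, 62.1 and 50.8 against 4.45, 1.41 and 5.01 CPM and 22.3, 19.4 and 17.8 against 0.741, 0.564 and 0.684 CPM.

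Promoters of these genes are shown because their letters differ between the replication and mitotic lists. RefSeq promoters on GRCh38.p14, from 250 bases before to 50 after the start, were found for 40 of 46 replication genes, 42 of 48 mitotic genes and 8718 of 10548 protein-coding genes tested. The CHR letters, TTTGAA or TTCGAA on either strand, were in 73.8% of mitotic promoters, 7.50% of replication promoters, 10.6% of the protein-coding genes tested and 16.6% of all 27305 promoters in the table. E2F letters (TTTCCCGC, TTTGGCGC, TTTCGCGC or TTTGCCGC on either strand) were in 55.0% of replication promoters, 4.76% of mitotic promoters, 5.67% of protein-coding genes tested and 3.33% of all promoters. CCAAT, the letters bound by NF-Y, on either strand, were in 69.05% of mitotic promoters, 55.0% of replication promoters and 37.7% of protein-coding genes tested. None of the CHR, E2F and CCAAT forms contains another, though matches may share bases at their ends. Among genes that fell at least 8-fold, 40.3% of 139 promoters held the CHR letters. A match describes these letters and is not a measured binding site.

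The 3 mitotic and 3 replication promoters printed here belong to the genes with the largest falls of each list that hold the letters within 120 bases before to 30 after the start, written 5′ to 3′ on the strand of the gene with CHR and E2F letters in capitals. They lie at chr4:17810859-17811008 (plus strand), chr18:2571437-2571586 (plus), chr1:163321834-163321983 (plus), chr18:657533-657682 (plus), chr16:88803669-88803818 (plus) and chr16:85688925-85689074 (minus). GINS2, a subunit of the replicative helicase, changed by -3.49.
NCAPG: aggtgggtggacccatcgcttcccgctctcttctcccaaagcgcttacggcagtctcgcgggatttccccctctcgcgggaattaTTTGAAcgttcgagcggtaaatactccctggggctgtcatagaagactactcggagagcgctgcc
NDC80: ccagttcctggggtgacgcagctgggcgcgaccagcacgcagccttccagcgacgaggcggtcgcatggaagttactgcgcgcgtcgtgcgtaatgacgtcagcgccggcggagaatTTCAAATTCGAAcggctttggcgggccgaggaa
NUF2: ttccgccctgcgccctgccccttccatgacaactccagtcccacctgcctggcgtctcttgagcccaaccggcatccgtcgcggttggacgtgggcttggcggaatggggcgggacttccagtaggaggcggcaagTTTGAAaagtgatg
TYMS: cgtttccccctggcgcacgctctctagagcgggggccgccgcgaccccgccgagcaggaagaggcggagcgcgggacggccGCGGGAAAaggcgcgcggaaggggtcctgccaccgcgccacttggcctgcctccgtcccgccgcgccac
CDT1: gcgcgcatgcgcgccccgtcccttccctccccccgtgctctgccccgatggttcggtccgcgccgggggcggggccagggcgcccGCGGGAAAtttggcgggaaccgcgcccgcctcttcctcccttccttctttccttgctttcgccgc
GINS2: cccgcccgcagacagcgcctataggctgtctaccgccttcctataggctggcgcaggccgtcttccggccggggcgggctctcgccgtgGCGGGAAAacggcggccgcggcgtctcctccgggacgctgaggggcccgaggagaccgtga
In NDC80 a pair of CHR matches stands side by side across the start, and in TYMS, CDT1 and GINS2 the same 8 E2F letters recur. For contrast, the promoters of the ER targets PTGES, at chr9:129753013-129753162 (minus), and PGR, at chr11:101129048-101129197 (minus), hold neither in this window.
PTGES: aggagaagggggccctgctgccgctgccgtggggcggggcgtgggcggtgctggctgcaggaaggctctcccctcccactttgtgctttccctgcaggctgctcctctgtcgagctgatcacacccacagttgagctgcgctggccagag
PGR: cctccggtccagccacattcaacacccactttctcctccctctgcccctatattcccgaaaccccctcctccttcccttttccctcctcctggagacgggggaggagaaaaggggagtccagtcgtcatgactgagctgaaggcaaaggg
The palindromic oestrogen response element was in no promoter of the 28 ER targets with an entry, 73.7% of those tested. It was in only 18 of all 27305 promoters, so its absence from so few cannot be read, and the list lacks entries besides.

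Genes that build ribosomes fell together, by less. Of 38 tested ribosome biogenesis genes, 33 fell and none rose (median -0.91), and of 77 cytosolic ribosomal protein genes 74 fell and none rose (median -0.77). Over all genes tested, 25.7% fell and 25.3% rose. Ribosomal protein transcripts took 9.10, 9.38 and 9.13% of all counts in DMSO and 5.31, 5.08 and 4.93% under fulvestrant. NOP56, a core protein of box C/D small nucleolar RNPs, was at 367, 293 and 286 CPM in DMSO and 78.8, 62.9 and 91.2 CPM under fulvestrant (-2.01 ± 0.12, adjusted p = 5.1e-11). LYAR, a nucleolar protein of rRNA processing, changed by -2.22 ± 0.11 (adjusted p = 1.2e-15), the nucleolar chaperone NPM1 by -1.30 ± 0.07 (adjusted p = 6.6e-15) and nucleolin, NCL, by -1.15 ± 0.08 (adjusted p = 6.3e-13). RPS19 was at 2224, 2302 and 2187 CPM and then at 896, 841 and 845 CPM (-1.38 ± 0.07, adjusted p = 1.9e-15), whereas RPL3, RPL22 and RPL10A, picked after their values were seen as the ribosomal protein genes that did not pass, changed by -0.10, -0.006 and -0.0013. Ribosomal protein genes have many near-identical pseudogenes, and how reads shared with them were counted can move single values.

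Host genes of small nucleolar RNAs, whose introns carry the guides for rRNA modification, followed, with 11 of 13 lower and 1 higher (median -1.04). The shares over all genes were 25.7% lower and 25.3% higher. SNHG1 was at 18.7, 19.95 and 20.7 CPM in DMSO and 1.24, 1.69 and 4.33 CPM under fulvestrant (-2.98 ± 0.39, adjusted p = 3.4e-06, and -3.75 without replicate 3 of fulvestrant), and SNHG3 at 29.1, 31.5 and 34.3 CPM and 4.94, 3.38 and 5.24 CPM (-2.79 ± 0.21, adjusted p = 7.1e-12). GAS5 fell less (-0.61 ± 0.11, adjusted p = 5.5e-05). Of the 10 tested genes of the MYC network, 2 rose and 3 fell, near the shares over all genes, and 4 rose without replicate 3 of fulvestrant. MXD4, a MAX partner that opposes MYC, rose from 74.8, 77.5 and 77.9 CPM to 208, 195 and 211 CPM (1.41 ± 0.08, adjusted p = 4.9e-14), while MXD3 went from 20.8, 20.7 and 26.3 CPM to 5.44, 5.36 and 4.33 CPM (-2.17 ± 0.24, adjusted p = 1.6e-08). MAX itself did not pass the test (0.16 ± 0.16, adjusted p = 0.44), but passed without replicate 3 (0.32, adjusted p = 0.033).

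The second question was which genes were released. Growth arrest genes rose in 13 of 23 tested (25.3% of all genes) and fell in 3 (25.7% of all genes), with a median of 0.92. CDKN1A (chr6:36676460-36687337), the CDK inhibitor p21, was at 13.9, 16.7 and 15.1 CPM in DMSO and 132, 142 and 122 CPM under fulvestrant (3.10 ± 0.11, adjusted p = 2.1e-18). CDKN2B, the CDK4/6 inhibitor p15, went from 6.53, 7.60 and 7.44 CPM to 33.6, 29.6 and 31.7 CPM (2.12 ± 0.17, adjusted p = 5.3e-11). TXNIP, a regulator of glucose uptake and redox state, and PIK3IP1, an inhibitor of PI3K, rose from 111, 129 and 145 CPM to 807, 836 and 619 CPM (2.55 ± 0.11, adjusted p = 1.6e-14) and from 7.12, 7.22 and 6.41 CPM to 58.1, 57.0 and 43.8 CPM (2.93 ± 0.16, adjusted p = 1.2e-14). CDK inhibitors did not move as a class. CDKN2C, p18, fell from 23.4, 18.4 and 18.6 CPM to 1.48, 2.54 and 2.96 CPM (-3.08 ± 0.27, adjusted p = 2.7e-10), CDKN1B, p27, was at 55.2, 51.3 and 52.9 CPM and 45.0, 39.2 and 46.0 CPM with a fall (-0.29 ± 0.11, adjusted p = 0.031) that was lost on leaving out any 1 of the 6 libraries other than replicate 3 of fulvestrant, with changes of -0.33 to -0.22. The call of CDKN1B was also lost with DESeq2, with no filter on low counts and with only the compared libraries (adjusted p = 0.060 to 0.087). CDKN1C, p57, did not pass the test (-0.44 ± 0.29).

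Genes described as repressed by oestrogen rose in all 8 of 8 tested, against 25.3% of all genes, with a median of 1.03. Like the other lists, this one was chosen with earlier results of these data known, so the count is a description. Under abemaciclib its median against DMSO was 0.56. ERBB2 (chr17:39687914-39730426), the receptor tyrosine kinase HER2, was at 41.0, 54.9 and 64.1 CPM in DMSO and 262, 229 and 244 CPM under fulvestrant (2.18 ± 0.11, adjusted p = 3.6e-15). Its partner ERBB3 went from 176, 197 and 178 CPM to 401, 359.9 and 419 CPM (1.10 ± 0.08, adjusted p = 1.1e-11), and ERBB4 from 48.7, 42.2 and 40.1 CPM to 68.2, 61.8 and 73.6 CPM (0.65 ± 0.11, adjusted p = 9.4e-06). All fulvestrant libraries lay above all DMSO libraries in the 3 receptors. BMF and BIK, BH3-only proteins that promote cell death, changed by 2.69 ± 0.20 (adjusted p = 6.2e-12) and 0.95 ± 0.16 (adjusted p = 1.2e-05), and CCNG2, an atypical cyclin of arrested cells, by 1.92 ± 0.12 (adjusted p = 4.5e-13).

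Receptors and adaptors of other growth factors had no common direction. Of 21 tested, 8 rose and 6 fell, shares not far from the 25.3% and 25.7% over all genes. Those that fell included the receptor IGF1R and both adaptors of insulin and IGF signalling, IRS1 and IRS2. IGF1R was at 6.23, 6.84 and 7.85 CPM in DMSO and 0.741, 3.10 and 0.456 CPM under fulvestrant (-2.36 ± 0.42, adjusted p = 3.4e-05). Replicate 2 was the highest fulvestrant library, and without it the change was -3.51. IRS1 went from 19.3, 21.3 and 16.9 CPM to 5.68, 7.33 and 5.01 CPM (-1.69 ± 0.21, adjusted p = 1.7e-07), and IRS2 from 8.01, 12.9 and 11.2 CPM to 3.71, 4.795 and 1.14 CPM (-1.79 ± 0.34, adjusted p = 6.2e-05). The insulin receptor, INSR, rose instead, from 26.4, 30.6 and 38.2 CPM to 56.3, 55.0 and 46.9 CPM (0.72 ± 0.13, adjusted p = 2.8e-05). RET, whose co-receptor GFRA1 was lost, fell by 1.05 ± 0.21.

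The largest rises held genes of several kinds. SIGLEC15 (chr18:45825675-45844094), a sialic acid receptor that can restrain T cells, was at 3.56, 4.18 and 4.13 CPM in DMSO and 61.3, 55.0 and 62.0 CPM under fulvestrant (3.88 ± 0.18, adjusted p = 6.3e-16). ST6GAL1, which adds sialic acid to glycoproteins in the Golgi, went from 7.12, 6.27 and 5.17 CPM to 62.0, 66.6 and 47.9 CPM (3.26 ± 0.18, adjusted p = 1.1e-14). Of the 9 tested genes of a list of sialyltransferases and SIGLEC15, these included, 3 rose, a share near the 25.3% over all genes. ST3GAL1 was the 1 that fell, by 0.83 ± 0.15, with 2 lower on leaving out replicate 3 of DMSO or any fulvestrant replicate.

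SOCS2 (chr12:93569814-93583487), a feedback inhibitor of growth hormone and prolactin signalling, was at 5.34, 4.56 and 6.61 CPM in DMSO and 45.0, 55.0 and 45.4 CPM under fulvestrant (3.13 ± 0.18, adjusted p = 6.0e-14). SOCS2-AS1, on the opposite strand at chr12:93542022-93571768, went from 3.86, 2.66 and 1.86 CPM to 33.6, 33.3 and 33.0 CPM (3.62 ± 0.26, adjusted p = 5.0e-12). The annotations of both overlap, and whether counting used the strand was not given in the sources used here, so reads of the overlap cannot be told apart. The receptors rose with it, PRLR from 122, 110.0 and 113 CPM to 209, 231 and 209.7 CPM (0.91 ± 0.08, adjusted p = 3.0e-10) and GHR from 44.5, 54.0 and 57.5 CPM to 103, 97.6 and 100.0 CPM (0.94 ± 0.11, adjusted p = 3.2e-08). In all, 9 of 14 tested genes of the prolactin receptor, STAT and SOCS list rose (25.3% of all genes) and none fell (25.7%), with a median of 0.60. STAT3 changed by 0.83 ± 0.08 (adjusted p = 2.4e-09).

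Further genes were among the 15 largest rises. FZD7, a Wnt receptor, went from 0.890, 1.14 and 1.03 CPM to 15.6, 18.9 and 9.80 CPM (3.78 ± 0.33, adjusted p = 2.4e-10), with replicate 3 the lowest of the fulvestrant libraries. PLA2G2A, a secreted phospholipase, was at 4.75, 2.09 and 3.10 CPM and 40.0, 30.7 and 43.5 CPM (3.60 ± 0.23, adjusted p = 2.3e-13), and XDH, xanthine dehydrogenase, at 1.19, 1.71 and 1.45 CPM and 12.4, 12.1 and 14.4 CPM (3.11 ± 0.29, adjusted p = 6.3e-10). The scavenger receptor COLEC12 (3.51), the glutamate receptor GRM4 (3.16), the potassium channel KCNK12 (3.15), the surface antigen PSCA (3.07), RANBP3L (3.16) and the non-coding RNA PCAT14 (3.66) were also among them. Falls among the 15 largest not yet named were TIAM1, an activator of RAC (-4.53, and -5.16 without replicate 3 of fulvestrant), ARC (-4.24), ESCO2, an acetyltransferase of cohesin (-4.17, and -4.81 without replicate 3), ERCC6L, a mitotic DNA translocase (-4.13), and CDCA7 (-4.10).

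**Figure D2:**
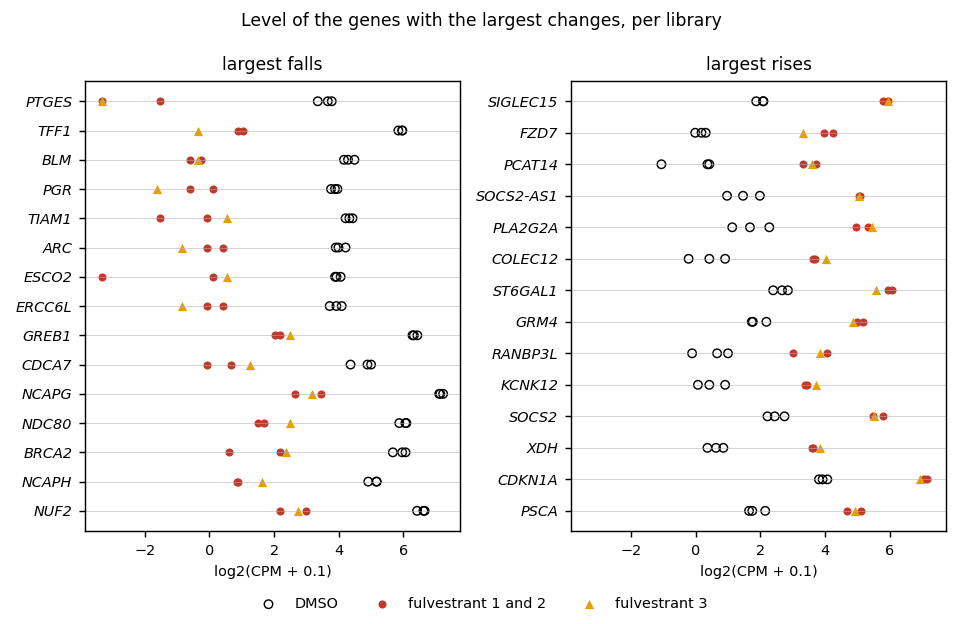
Level in each library (log2 of CPM + 0.1) of genes with the largest falls (15, left) and the largest rises (14, right); open circles are the 3 DMSO libraries, red points replicates 1 and 2 of fulvestrant and orange triangles replicate 3. In every row the groups are apart, as the rule for naming these genes required, and replicate 3 lies with the other fulvestrant libraries.

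Among nuclear receptors other than ER, 10 of 20 tested rose (25.3% of all genes) and 2 fell (25.7%), PGR being the deepest fall. RXRA, the common partner of class II receptors, went from 183, 185 and 178 CPM in DMSO to 347, 318 and 369 CPM under fulvestrant (0.92 ± 0.08, adjusted p = 5.3e-11), whereas NR3C1, the glucocorticoid receptor, was at 92.3, 87.4 and 81.0 CPM and 66.5, 69.1 and 83.9 CPM and did not pass (-0.24 ± 0.11, adjusted p = 0.06), but did without replicate 3 of fulvestrant (-0.36, adjusted p = 0.0062). Of genes known to be induced by glucocorticoids, TSC22D3, also called GILZ, was at 65.9, 91.2 and 96.1 CPM and 330.3, 356 and 231 CPM (1.84 ± 0.18, adjusted p = 9.6e-06), ZBTB16 at 3.26, 1.71 and 3.31 CPM and 9.39, 8.74 and 13.2 CPM (1.96 ± 0.30, adjusted p = 3.1e-06) and KLF9 at 37.4, 32.7 and 36.8 CPM and 72.4, 79.8 and 84.3 CPM (1.15 ± 0.11, adjusted p = 1.6e-09). FKBP5, another such gene picked after its value was seen, fell (-0.26), a call lost on leaving out any 1 library except replicate 3 of DMSO, or with no filter on low counts (adjusted p = 0.060).

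Immediate early genes rose in 11 of 16 tested (25.3% of all genes) and fell in 1 (25.7% of all genes), with a median of 0.93. FOS, a subunit of AP-1, was at 8.01, 5.89 and 11.0 CPM in DMSO and 32.1, 24.5 and 27.3 CPM under fulvestrant (1.76 ± 0.34, adjusted p = 7.9e-04), JUN at 43.3, 49.98 and 57.5 CPM and 123, 123 and 105 CPM (1.21 ± 0.11, adjusted p = 2.6e-10) and JUNB at 57.3, 75.4 and 93.4 CPM and 189, 203 and 175 CPM (1.31 ± 0.12, adjusted p = 3.5e-08). EGR3, which is also a classical ER target, was the member that fell, from 7, 11 and 9 counts to 0, 0 and 2 (adjusted p = 0.0013). The list's median without replicate 3 of fulvestrant was 1.14.

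In the BCL2 family, 8 of 15 tested genes rose (25.3% of all genes) and 2 fell (25.7%), with rises on both sides of the balance between death and survival. BCL2 itself, a survival gene and ER target, was at 9.20, 8.74 and 7.65 CPM in DMSO and 4.94, 4.23 and 5.47 CPM under fulvestrant (-0.79 ± 0.26, adjusted p = 0.015). Without replicate 2 of fulvestrant BCL2 did not pass (-0.70, adjusted p = 0.052), which left 1 member lower. MCL1, also pro-survival, rose from 181, 179.6 and 186 CPM to 404, 417 and 308 CPM (1.05 ± 0.09, adjusted p = 1.4e-10). The BH3-only gene BBC3, or PUMA, rose from 65.6, 81.9 and 92.4 CPM to 275, 256 and 251 CPM (1.69 ± 0.10, adjusted p = 1.2e-13), while BID fell (-1.03 ± 0.13, adjusted p = 2.3e-07) and BCL2L11, or BIM, at 12.5, 17.1 and 15.5 CPM and 24.5, 21.2 and 15.95 CPM, did not pass (0.42 ± 0.18, adjusted p = 0.057). BCL2L11 passed without replicate 3 of fulvestrant (0.58, adjusted p = 0.0095), without replicate 2 of DMSO (0.53, adjusted p = 0.047), with upper-quartile factors (0.44, adjusted p = 0.046) and with all libraries thinned to the smallest total (0.57, adjusted p = 0.020).

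**Figure D3:**
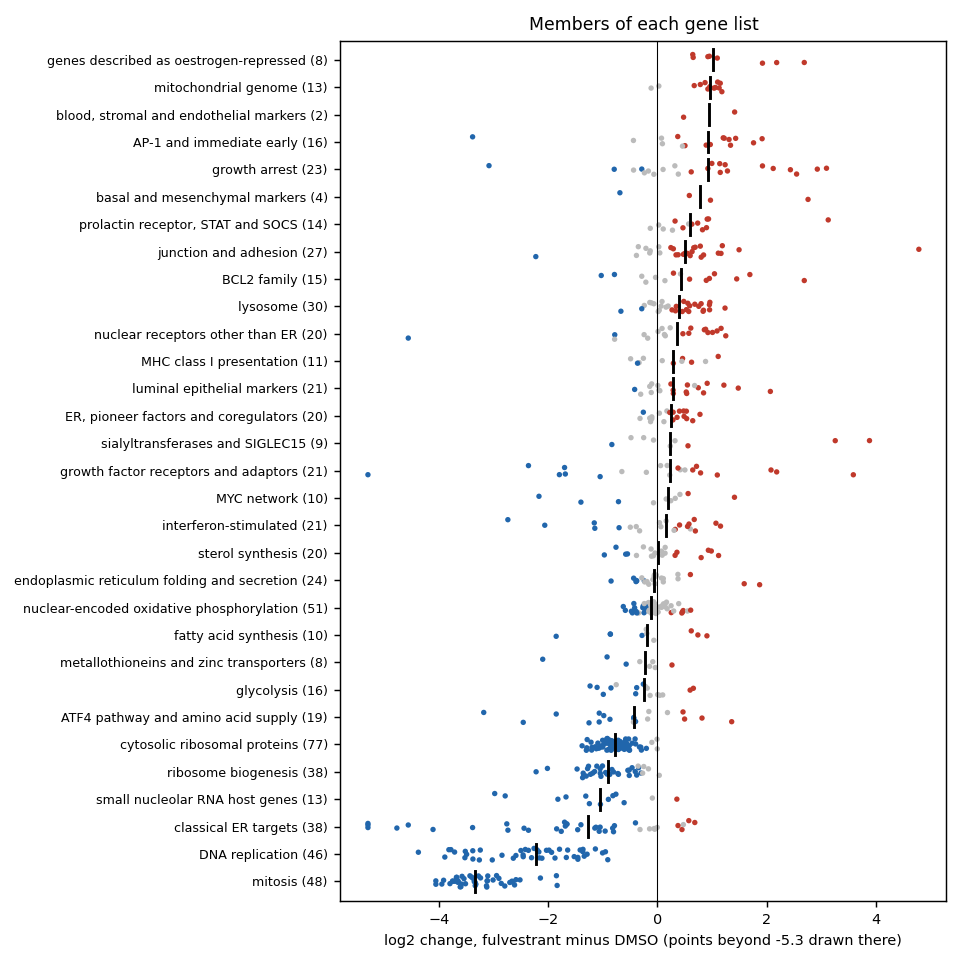
Change of every tested member (log2, fulvestrant minus DMSO) in 31 hand-written gene lists, ordered by median (black bar); the number of tested members is in brackets, red and blue points passed the test and grey points did not. Mitosis and DNA replication hold only blue points, the oestrogen-repressed list only red ones, and the ER target list spans the widest range to the left, with 3 members drawn at the limit.

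Genes of amino acid supply fell in 11 of 19 tested, against 25.7% of all genes, and rose in 4, against 25.3% (median -0.43). PHGDH, the entry enzyme of serine synthesis, was at 43.3, 36.9 and 40.7 CPM in DMSO and 6.42, 1.97 and 4.56 CPM under fulvestrant (-3.18 ± 0.23, adjusted p = 4.0e-12). SLC1A5 and SLC7A5, carriers of glutamine and of large neutral amino acids, went from 143, 166 and 153 CPM to 41.3, 44.8 and 41.9 CPM (-1.85 ± 0.11, adjusted p = 3.7e-14) and from 199, 240.2 and 248 CPM to 95.4, 105 and 129 CPM (-1.07 ± 0.11, adjusted p = 1.1e-07). ATF4, the factor that drives many of these genes, fell less (-0.43 ± 0.10, adjusted p = 0.0015). VEGFA, listed here as an ATF4 target, rose from 29.7, 37.6 and 36.2 CPM to 81.0, 92.2 and 95.0 CPM (1.36 ± 0.11, adjusted p = 9.6e-11).

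Lipid genes had no common direction. The counts of calls in these lists, and in those of glycolysis and oxidative phosphorylation below, are to be read against 25.3% higher and 25.7% lower over all genes. Sterol synthesis had 6 higher and 4 lower of 20 (median 0.02; 2 lower without replicate 1 or 2 of DMSO or replicate 1 of fulvestrant), and fatty acid synthesis 3 higher and 4 lower of 10 (median -0.20). Within them, the fatty acid synthase FASN rose from 296, 315 and 344 CPM to 645, 649.6 and 499 CPM (0.91 ± 0.10, adjusted p = 1.9e-08). The desaturases FADS1 and SCD fell, FADS1 from 40.4, 42.8 and 40.9 CPM to 11.6, 11.6 and 11.2 CPM (-1.85 ± 0.15, adjusted p = 5.0e-11) and SCD from 245, 269 and 279 CPM to 159, 162 and 116 CPM (-0.86 ± 0.10, adjusted p = 3.0e-08). Glycolysis had 2 higher and 7 lower of 16 (median -0.24; 9 lower without replicate 3 of fulvestrant), with the glucose carrier SLC2A1 at 142, 135 and 119 CPM and 71.7, 66.8 and 60.9 CPM (-0.99 ± 0.09, adjusted p = 1.1e-09), and nuclear-encoded oxidative phosphorylation 5 higher and 16 lower of 51 (median -0.12). The 5 higher became 3 without replicate 2 of fulvestrant and 9 without replicate 3.

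Transcripts of the mitochondrial genome rose in 11 of 13 mRNA genes (25.3% of all genes) and fell in none (25.7%), with a median of 0.96. They made up 6 of the 8 largest gains in CPM of any gene. MT-CO3, a subunit of cytochrome oxidase, was at 8261, 8748 and 9665 CPM in DMSO and 18298, 23471 and 15557 CPM under fulvestrant (1.10 ± 0.12, adjusted p = 1.1e-06). The 13 mRNA genes took 5.04, 5.40 and 6.25% of all counts in DMSO and 10.5, 13.2 and 8.45% under fulvestrant. Here replicate 3 was the lowest, with per-library medians of 0.94, 1.32 and 0.52, and the list's median without it was 1.14. In the ribosomal RNA gene MT-RNR2 replicate 3 was instead the highest, with 59071, 51689 and 48090.1 CPM in DMSO and 58051, 66902 and 77948 CPM under fulvestrant. The groups overlapped in MT-RNR2, and its change of 0.35 ± 0.13 (adjusted p = 0.035) did not pass without replicate 3 (0.24, adjusted p = 0.24), nor without replicate 2 of fulvestrant or replicate 2 or 3 of DMSO (0.24 to 0.46 over the 6 libraries left out), nor with no filter on low counts (adjusted p = 0.11). MALAT1, a nuclear non-coding RNA, was likewise highest in replicate 3, with 22632, 20025 and 21095 CPM in DMSO and 25957, 24654 and 33952 CPM under fulvestrant (0.41 ± 0.09, adjusted p = 6.5e-04).

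Lysosomal genes rose in 18 of 30 tested (25.3% of all genes) and fell in 2 (25.7% of all genes), with a median of 0.40. Of those that fell 1 was left without replicate 2 or 3 of DMSO or replicate 1 of fulvestrant. PSAP, the precursor of the saposins, was at 388, 393 and 399.6 CPM in DMSO and 781, 835 and 671 CPM under fulvestrant (0.95 ± 0.08, adjusted p = 4.7e-11), the membrane protein LAMP1 at 537, 652 and 645 CPM and 1045, 1163 and 896 CPM (0.76 ± 0.09, adjusted p = 4.9e-08) and TFEB, a regulator of lysosome biogenesis, at 5.94, 10.6 and 5.58 CPM and 15.3, 13.8 and 15.04 CPM (0.96 ± 0.24, adjusted p = 0.0015). Folding genes of the endoplasmic reticulum were 3 higher and 6 lower of 24, not above the shares of 25.3% and 25.7% over all genes. Without replicate 3 of fulvestrant 5 were higher. HERPUD1, a factor of protein disposal, was far above the rest at 82.5, 99.4 and 90.5 CPM and 349, 351 and 302 CPM (1.87 ± 0.09, adjusted p = 2.6e-15).

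Epithelial genes that passed the test mostly rose. The counts of calls in the lists below are to be read against 25.3% higher and 25.7% lower over all genes. In the luminal list 12 of 21 tested rose and 1 fell (median 0.29; 2 fell without replicate 3 of fulvestrant), led by SCGB2A2, or mammaglobin, at 29.1, 33.3 and 31.2 CPM in DMSO and 129.96, 129 and 136 CPM under fulvestrant (2.07 ± 0.09, adjusted p = 2.3e-16), and by KRT7, a keratin of simple epithelia, at 240.4, 210.0 and 188 CPM and 582, 552 and 644 CPM (1.48 ± 0.09, adjusted p = 7.8e-14). The keratin KRT18 (-0.10 ± 0.07) did not pass. Junction and adhesion genes were 19 higher and 1 lower of 27 (median 0.50; 2 lower without replicate 3). JUP, or plakoglobin, went from 167, 229 and 265 CPM to 539, 585 and 391.5 CPM (1.19 ± 0.17, adjusted p = 1.5e-04) and the laminin receptor subunit ITGA3 from 10.1, 13.9 and 11.6 CPM to 40.5, 33.0 and 28.5 CPM (1.496 ± 0.16, adjusted p = 1.7e-08), while ITGA2, of the collagen receptor, fell from 14.5, 17.9 and 14.5 CPM to 3.21, 3.38 and 3.42 CPM (-2.23 ± 0.23, adjusted p = 7.3e-09). Of the 4 basal and mesenchymal markers with enough reads, 3 rose and 1 fell, ACTA2 from 3.26, 1.71 and 2.27 CPM to 15.3, 14.9 and 17.1 CPM (2.76 ± 0.25, adjusted p = 3.5e-10). Both stromal markers with enough reads rose, COL3A1 (1.41 ± 0.30, adjusted p = 2.6e-04) and COL1A1 (0.48 ± 0.17, adjusted p = 0.019). COL1A1 lost its call without replicate 1 or 3 of DMSO or replicate 2 of fulvestrant, with changes of 0.38 to 0.60. Their part in the other results was not tested.

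Immune genes that were tested showed no common direction, with shares of calls that are again to be read against 25.3% higher and 25.7% lower over all genes. Of 38 interferon-stimulated genes, 17 had too few reads to be tested, IFIT1, MX1, OAS1 and RSAD2 among them. The 21 tested were 8 higher and 5 lower (median 0.16), with OAS3, a sensor of double-stranded RNA, down from 25.5, 31.4 and 28.3 CPM to 4.45, 4.23 and 4.10 CPM (-2.74 ± 0.20, adjusted p = 3.6e-12) and PARP9 up from 13.1, 10.1 and 11.8 CPM to 26.2, 29.1 and 22.1 CPM (1.16 ± 0.17, adjusted p = 2.0e-06). MHC class I genes were 4 higher and 1 lower of 11, with 2 lower without replicate 1 or 2 of fulvestrant. TAP1, a peptide transporter, rose from 8.31, 14.1 and 9.92 CPM to 25.2, 21.2 and 25.1 CPM (1.11 ± 0.17, adjusted p = 5.7e-06). Among metallothioneins and zinc transporters, 3 of 8 fell and 1 rose, 0 without replicate 1 or 2 of DMSO or replicate 2 of fulvestrant, and the metal buffer MT2A went from 405, 411 and 414 CPM to 88.2, 109 and 90.5 CPM (-2.10 ± 0.09, adjusted p = 4.6e-17). Members of these gene families are near copies of each other, so that reads may be split between them.

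To show where the response to fulvestrant differs from that to abemaciclib, the fulvestrant and abemaciclib groups were compared directly. Each drug was given at a single dose, and the part of dose in the differences was not tested. The DMSO libraries do not enter the contrast, but they enter the fit through filter, scaling and shared spread. The groups differed in 3417 of 11803 genes (29.0%), 13.4% higher and 15.5% lower under fulvestrant. Of the 38 tested ER targets, 33 were lower under fulvestrant than under abemaciclib and none was higher. TFF1 stood at 367, 383 and 395 CPM under abemaciclib, PGR at 23.8, 24.1 and 29.8 CPM and CCND1 at 1359.9, 1289 and 1332 CPM, all above their DMSO levels, and fulvestrant minus abemaciclib was -8.04 ± 0.16 (adjusted p = 4.9e-24), -5.40 ± 0.33 (adjusted p = 9.4e-13) and -2.76 ± 0.08 (adjusted p = 1.7e-20).

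Against the same DMSO libraries, the median of the replication genes was -1.48 under abemaciclib and -2.23 under fulvestrant, and that of the mitotic genes -2.01 and -3.34. Of the mitotic genes, 44 of 48 were lower under fulvestrant than under abemaciclib, and of the replication genes 27 of 46, with 2 higher. The shares over all genes were 15.5% lower and 13.4% higher. MKI67 was at 51.4, 51.4 and 59.6 CPM under abemaciclib, a difference of -0.30 ± 0.10 (adjusted p = 0.029), and RRM2 at 20.4, 20.3 and 21.7 CPM, where the difference of -0.33 ± 0.14 (adjusted p = 0.066) did not pass the test. Ribosomal protein genes were lower under fulvestrant in 71 of 77. Several lists of released genes had near medians against DMSO under both drugs. Abemaciclib and fulvestrant gave 0.38 and 0.40 for lysosomal genes and 0.39 and 0.50 for junction and adhesion genes. Immediate early genes had 0.77 and 0.93, and luminal markers 0.25 and 0.29. Growth arrest genes (0.20 and 0.92) and genes described as oestrogen-repressed (0.56 and 1.03) lay further apart. Some single released genes also differed. SIGLEC15 was at 7.00, 5.52 and 3.79 CPM under abemaciclib (3.42 ± 0.17, adjusted p = 1.2e-14), SOCS2 at 9.60, 9.49 and 8.59 CPM (2.38 ± 0.17, adjusted p = 1.6e-11), CDKN1A at 46.2, 48.1 and 44.7 CPM (1.51 ± 0.09, adjusted p = 1.4e-12) and ERBB2 at 114, 125 and 126 CPM (1.01 ± 0.10, adjusted p = 1.6e-08). In the mitochondrial genome no mRNA gene differed between the drugs at an adjusted p under 0.05 (edgeR), MT-CO3 by 0.03 ± 0.12 (adjusted p = 0.89).

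**Figure D4:**
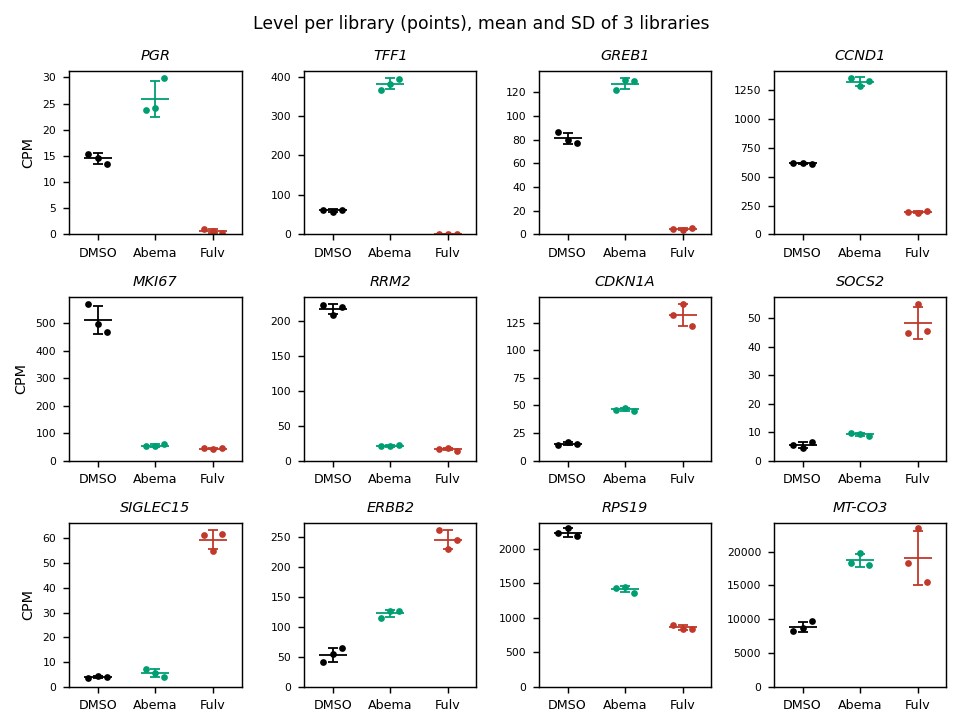
Level (CPM, linear axes from 0) of 12 genes in the 3 libraries each of DMSO, abemaciclib and fulvestrant; points are libraries, horizontal bars means and error bars SD. PGR, TFF1, GREB1 and CCND1 are above DMSO with abemaciclib and below it with fulvestrant, MKI67 and RRM2 are low with both, SIGLEC15 and SOCS2 are high with fulvestrant, and MT-CO3 is high with both.

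Last, the genes that set replicate 3 of fulvestrant apart were described. CD9, a tetraspanin of the cell surface, was at 683, 947 and 150.0 CPM under fulvestrant and 65.6, 138 and 177 CPM in DMSO, so that replicate 3 lay inside the range of DMSO. Its change was 2.21 ± 0.64 (adjusted p = 0.019) with replicate 3 and 2.66 (adjusted p = 7.8e-04) without it. The call was lost without replicate 1 or 2 of DMSO or replicate 2 of fulvestrant, with changes of 1.70 to 2.66 over the 6 libraries left out. MIF, an inflammatory cytokine, was at 36.3, 55.0 and 2.73 CPM under fulvestrant and 3.56, 12.5 and 15.7 CPM in DMSO. It did not pass with replicate 3 (1.45 ± 0.86, adjusted p = 0.2) and passed without it (2.01, adjusted p = 0.017). MTATP6P1, a nuclear copy of mitochondrial sequence whose reads may come from the mitochondrial genome, was at 875, 1392 and 249 CPM and 144, 224 and 321 CPM. It changed by 1.86 ± 0.56 (adjusted p = 0.023), which did not pass without replicate 1 or 2 of DMSO or replicate 1 or 2 of fulvestrant (1.28 to 2.29 over the 6 libraries left out). With only the compared libraries in the fit the calls of CD9 (adjusted p = 0.099) and MTATP6P1 (adjusted p = 0.11) were lost as well. Others far below in replicate 3 were ZNF227, PPP4C, HSPB8, RASSF3 and C1QBP. ZNF227 and PPP4C passed only without replicate 3 (1.23, adjusted p = 6.8e-05, and 1.13, adjusted p = 0.036). On the other side, PTMAP10, RPL5P4 and RPL21P16, processed pseudogenes of PTMA and of ribosomal proteins, stood higher in replicate 3. PTMAP10 was at 51.4, 54.2 and 147 CPM under fulvestrant and 299.8, 238 and 173 CPM in DMSO, and changed by -1.47 with and -2.16 without replicate 3. RPL5P4 changed by -1.38 and -2.17. Both calls were lost without replicate 1 of DMSO or replicate 1 or 2 of fulvestrant, with changes of -2.16 to -1.20 and -2.17 to -1.09 over the 6 libraries left out, and that of RPL5P4 also without replicate 2 of DMSO. Both were lost too with only the compared libraries (adjusted p = 0.083 and 0.10), and that of RPL5P4 with no filter on low counts (adjusted p = 0.053). RAC3, a GTPase of the RAC family, was at 30.6, 27.6 and 66.3 CPM and 80.4, 57.6 and 56.8 CPM in the same order, and passed only without replicate 3 (-1.13, adjusted p = 3.0e-07). COPG2, AP1S1, FKBP1C and JHY were also highest in replicate 3, and COPG2 (-0.39, adjusted p = 0.013), AP1S1 (-0.78, adjusted p = 0.023) and JHY (-1.02, adjusted p = 0.0080) passed only without it.

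The same genes deviated in replicate 1 of DMSO. It was above both other DMSO libraries in all 15 genes that were above in replicate 3 of fulvestrant, and below both in 43 of the 46 genes that were below. Over all 8321 genes considered it was above both in 39.0% and below both in 38.6%. Across genes, the deviations of both libraries from their group means correlated at 0.30, a description over 11803 genes that are not independent. Replicate 1 of DMSO had the smallest total of the 12 libraries, while replicate 3 had the largest of the fulvestrant libraries. Processed pseudogenes took 0.291, 0.340 and 0.448% of counts under fulvestrant and 0.765, 0.673 and 0.568% in DMSO, highest within each group in these 2 libraries, as were the mitochondrial ribosomal RNAs with 9.20% in replicate 3 of fulvestrant and 7.41% in replicate 1 of DMSO. The labels name no batch that these libraries share, and the part of RNA handling in the pattern was not tested. Of the 6023 called genes, replicate 3 was the fulvestrant library nearest to DMSO in 43.8%, against 26.4% for replicate 1 and 29.8% for replicate 2. The medians of the ER target list were nonetheless close, at -1.30, -1.22 and -1.34 in the 3 libraries.

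**Figure D5:**
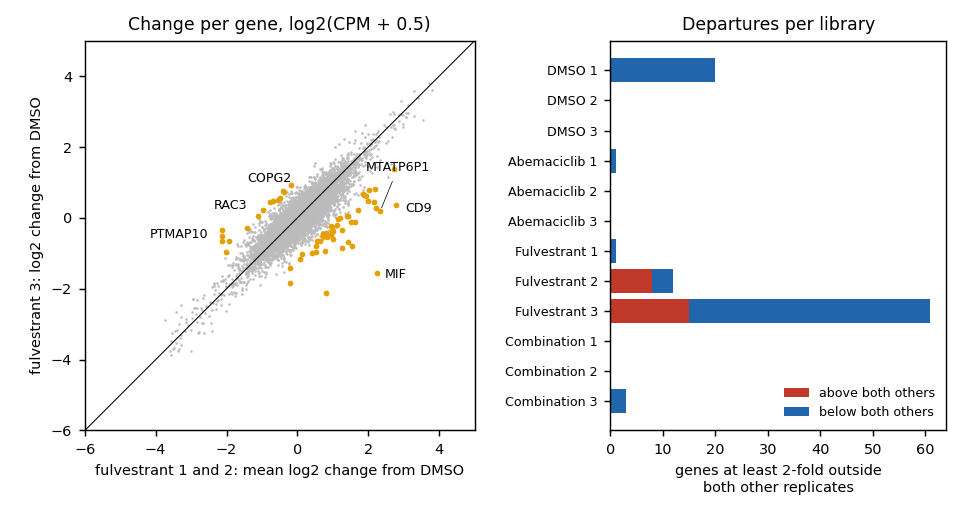
Left, change of each gene from the DMSO mean (log2 of CPM + 0.5) in replicate 3 of fulvestrant against the mean of replicates 1 and 2, with the 61 genes at least 2-fold outside both in orange and the line of equality. Right, number of genes in which each library lies at least 2-fold above (red) or below (blue) both other replicates of its group: 61 in replicate 3 of fulvestrant and 20 in replicate 1 of DMSO, with 12 or fewer in each of the other libraries.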

How the data were processed

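Gene counts of 12 libraries of CAMA-1 cells, 3 each for DMSO, abemaciclib, fulvestrant and their combination, were taken from the table deposited by the authors. Libraries were prepared with the QuantSeq 3′ FWD kit, and the authors' counts are whole reads per gene from STAR and featureCounts 2.0.1 on hg38, as the submitters' processing notes name them. Strand setting and any use of molecular identifiers were not given in the sources used here. The 44 rows without a gene name held 0 reads and were left out, and the 76 symbols found on several rows were kept apart. No library was dropped or imputed.

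Genes passed edgeR's filter with a minimum count of 10 and a total of at least 15. TMM factors were computed, and the quasi-likelihood test of edgeR 4.0.16 in R 4.3.3 was fitted on all 12 libraries with one term per treatment, so that all groups share the estimate of spread. P-values were adjusted by Benjamini-Hochberg over the 11803 genes tested, with a threshold of 0.05. CPM are the counts divided by the scaled library size. Replicates are independent biological cultures, as the study's methods give it for RNA-seq in cell lines. Totals of 3299119 to 5164667 counts limit single genes near the floor of 3 counts.

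Named genes were ESR1; the 15 largest rises and falls among genes called in every leave-one-out fit, without overlap between groups and with at least 10 CPM in a group; the 8 largest gains and losses in CPM; up to 6 members with the largest change in each of 32 lists with each pathway's defining members; and the 8 genes furthest above and below in replicate 3 of fulvestrant. Of these, the ones that carry a statement were printed, some items are not reported here, and the few others are said to be chosen after their values were seen. Members and lists were chosen with earlier results of these data known. Positions are from GENCODE v44 on GRCh38, which may differ from the annotation the authors counted on, and promoters from RefSeq on GRCh38.p14. The alternatives were RLE and upper-quartile factors, DESeq2 1.42.0, 2 other filters, a fit on the compared libraries alone, a replicate block, the mitochondrial genome left out, thinning to the smallest total, and each library left out in turn. The fit was tested on simulated data in which few genes changed, each 2-fold up or down, with the same spread for all genes. No library deviated in them, so the test does not cover the share of called genes or the deviating libraries seen here.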

Additional observations from a re-analysis of the deposited data

How the results depend on the processing

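The count of genes changed by fulvestrant was between 5259 and 6162 under every alternative, against 6023, and which of rises and falls was the more numerous varied with the setting, as with upper-quartile factors, which gave 3108 higher and 2919 lower. At least 2-fold changes numbered 1346 in place of 2072, and at least 2-fold falls 709 in place of 1119, when at least 10 counts were required in each library, a filter that tested 9956 genes and removes by construction genes that were lost to the floor. Genes that set replicate 3 of fulvestrant apart fell from 61 to 21 where a mean of at least 50 CPM was asked for, with 3654 genes considered. The count of genes that differ between fulvestrant and abemaciclib was 2733 to 3437. The median of the ER targets was between -1.35 and -1.004 over all alternatives. Among named genes, reversals were seen in genes that had not passed the test, with changes over the 6 libraries left out of -0.057 to 0.089 for ESR1, -0.39 to 0.31 for COPG2, -0.78 to 0.011 for AP1S1, -0.19 to 0.55 for FKBP1C, -1.30 to 1.04 for HSPB8 and -0.11 to 0.69 for RASSF3; the cause was not tested. Replicate numbers are shared by all groups, but same-numbered DMSO and fulvestrant libraries did not deviate together (-0.21 to 0.12, and -0.21 to 0.30 for different numbers), so the numbers were taken as names. With the replicate number as a block, 5978 genes were called, 5903 of them shared, 120 lost and 75 gained. Of the genes named here, BCL2L11 passed under the block (adjusted p = 0.049) and MTATP6P1 did not (adjusted p = 0.053). At these totals, genes near 3 counts per library cannot be ranked by their fold, and changes are shares of the library, so that a change of all RNA in a cell would not be seen.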

Other observations

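Several abundant genes not yet described changed. Beyond TOP2A and the ribosomal genes, the largest losses in CPM were PTMA, or prothymosin alpha, from 5197, 5046 and 4925 CPM in DMSO to 1555, 2094 and 2279 CPM under fulvestrant (-1.36 ± 0.10, adjusted p = 6.1e-11), the cytosolic chaperones HSP90AA1 (-1.07 ± 0.07, adjusted p = 5.2e-13) and HSP90AB1 (-0.58 ± 0.07, adjusted p = 3.5e-08), and the tubulin gene TUBA1B, from 2013, 2423 and 2490.1 CPM to 739, 815 and 560.2 CPM (-1.71 ± 0.12, adjusted p = 2.1e-09). PTMA and the tubulins have pseudogenes or near copies that can share their reads. In the opposite direction, genes picked after their values were seen included NDRG1, a stress and differentiation gene induced by hypoxia, from 101, 126 and 115 CPM to 951, 963 and 816 CPM (2.99 ± 0.09, adjusted p = 9.9e-20), and ANKRD37, also known as hypoxia-induced, from 14.8, 10.8 and 14.1 CPM to 105, 109 and 101 CPM (3.01 ± 0.12, adjusted p = 3.7e-17). The transcription factor SOX4 went from 1087, 1069.9 and 1037 CPM to 2898, 2728 and 3615 CPM (1.53 ± 0.08, adjusted p = 1.8e-14), with replicate 3 of fulvestrant the highest. IGFBP5, a secreted protein that binds IGF, was at 6558, 6635 and 6205 CPM and 10913, 12004 and 10649 CPM (0.79 ± 0.08, adjusted p = 1.4e-09), and so rose while IGF1R, IRS1 and IRS2 fell. AMBP, a plasma protein precursor, had 0 reads in every fulvestrant library and was at least 6.17-fold lower (adjusted p = 3.3e-07). In each of these genes the 3 fulvestrant libraries lay on the same side of all 3 DMSO libraries, as they did in 5579 of the 6023 called genes.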
